A study of Mus musculus with 94 samples.

Results

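Hypoxia and glycolysis genes were followed in 94 4T1 tumors over 4 treatments and 5 days. The set holds 32 genes, taken by gene symbol from the 49080 genes of the deposited table, and all 32 were present and passed the filter on low counts in every fit. They were grouped by role: 5 genes of oxygen sensing and regulation (Hif1a, Egln1, Egln3, Kdm3a, Ankrd37), 7 of the hypoxia response (Car9, Bnip3, Ndrg1, Adm, Ddit4, P4ha1, P4ha2), 3 of glucose and lactate transport (Slc2a1, Slc2a3, Slc16a3), 14 of glycolytic enzymes (Hk1, Hk2, Gpi1, Pfkl, Pfkp, Aldoa, Aldoc, Tpi1, Gapdh, Pgk1, Pgam1, Eno1, Pkm, Ldha) and 3 of flux control (Pfkfb3, Pfkfb4, Pdk1).

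When oxygen is present, prolyl hydroxylases such as those encoded by Egln1 and Egln3 mark the HIF-1α protein for breakdown. When oxygen runs low, HIF-1α escapes, enters the nucleus and turns on its target genes. Their products carry glucose into the cell, break it down to lactate and export the acid. Another target, Pdk1, holds pyruvate back from oxidation in the mitochondria. HIF-1α is controlled mainly at the protein level, and total RNA shows the mRNA of Hif1a and of its targets but not the protein. In solid tumors, cells far from a vessel are known to use this program.

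4T1 is a mouse mammary carcinoma line that was implanted in the right hind limb of female BALB/c mice aged 8 weeks. The 4 groups were untreated controls (20 tumors), tumors given 1 dose of 6 Gy x-rays (25), tumors of mice given indomethacin (INDO, an NSAID and inhibitor of the COX1 and COX2 enzymes) at 30 mg/L in drinking water (25), and tumors given 6 Gy + INDO (24). Tumors were taken on days 1, 3, 7, 15 and 23. Controls numbered 4, 5, 5, 3 and 3 on those days. The treated groups held 5 tumors each, save 4 given 6 Gy + INDO on day 3. The paper counts days after irradiation, not after implantation, and mice entered treatment groups once their tumors had reached a set size. Tumors of day 1, controls among them, were thus already established when taken. All groups share the line, the host and the implant site, INDO reached the whole animal, and RNA came from frozen tumor sections that hold all cells present, so that fewer cells of a type and less RNA per cell cannot be told apart. Tumors carry a replicate number in the labels, with no litter or cage, and p values measure the spread between these tumors.

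Levels are in CPM, a gene's counts per M (mega) counts of its library after TMM scaling, and differences are log2 fold changes with their SE. A gene was called at an edgeR adjusted p under 0.05 (Benjamini-Hochberg over all genes tested), and n is the number of tumors. Counts at an unadjusted p under 0.05, and those from DESeq2 or another alternative, are given without the share of all genes. With no change at all, a share of about 0.05 would pass the unadjusted p. Total counts per library, in M, ran from 29.4 to 96.5 in controls (median 73.4), 34.8 to 109.3 after 6 Gy (66.6), 24 to 89.0 with INDO (41.05) and 21 to 74.9 with 6 Gy + INDO (37.5). The median mitochondrial share of counts was 3.90%, 3.58%, 5.57% and 5.69% in the same order, so that depth and mitochondrial share moved with INDO, and their part in the results was not tested. In 11 tumors, genes of odor and pheromone receptors took 333 to 1952 CPM, against 42.3 to 131 CPM in the other 83. These 11, called high-receptor tumors here, hold 1 control (day 15 replicate 1), 2 INDO tumors (day 1 replicate 5, day 15 replicate 3) and 8 given 6 Gy + INDO (3 of 4 on day 3, 3 of 5 on day 7 and 2 of 5 on day 23). In 22 tumors, 12 skeletal muscle genes summed to over 2000 CPM (2025 to 10590, against 9.35 to 1836 in the others), and these are called high-muscle tumors. Of the tumor's own markers, 10 epithelial genes summed to 1904 to 5052 CPM in all 94 tumors. Scaling by 14 housekeeping genes in place of TMM moved the median of all genes' log2 fold changes by 0.16 for INDO and 0.19 for 6 Gy + INDO as a mean over days, by 0.19 for 6 Gy + INDO against 6 Gy, and by -0.21 to 0.32 within single days.

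Promoters of 30 members were found among RefSeq promoter sequences (GRCm38.p6), 42 in all, each 250 bases before to 50 bases after a transcription start. ACGTG, the core that HIF binds, was searched on both strands, and CACGTG, which reads the same on both, counts as 2 matches. It stood in 23 of 42 member promoters (54.8%) and in 19.6% of all 32851 promoters. GCGTG, the other core form, stood in 24 of 42 (57.1%) and in 32.4% of all. These shares are a description, the promoters were not matched for base composition, and a match is not a site of binding. A promoter is shown for 4 members whose values are described next, Pgk1 and Slc2a1, which were lower with 6 Gy + INDO, and Hk2 and Egln3, which were higher with INDO. They lie at chrX:106186850-106187149 (plus strand), chr4:119108495-119108794 (plus), chr6:82774405-82774704 (minus) and chr12:54203825-54204124 (minus), are written 5′ to 3′ along the gene, and have ACGTG or its complement CACGT in capitals.
Pgk1: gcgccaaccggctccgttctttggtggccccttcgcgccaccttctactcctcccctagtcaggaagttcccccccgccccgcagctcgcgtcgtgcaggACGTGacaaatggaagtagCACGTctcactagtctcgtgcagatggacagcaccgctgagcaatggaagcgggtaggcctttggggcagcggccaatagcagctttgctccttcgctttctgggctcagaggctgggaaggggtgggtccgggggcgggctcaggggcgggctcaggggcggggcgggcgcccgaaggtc
Slc2a1: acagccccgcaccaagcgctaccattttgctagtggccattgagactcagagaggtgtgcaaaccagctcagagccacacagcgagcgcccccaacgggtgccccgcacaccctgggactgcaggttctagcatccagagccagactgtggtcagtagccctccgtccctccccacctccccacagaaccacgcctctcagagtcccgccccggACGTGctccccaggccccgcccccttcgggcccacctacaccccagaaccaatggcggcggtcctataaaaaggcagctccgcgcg
Hk2: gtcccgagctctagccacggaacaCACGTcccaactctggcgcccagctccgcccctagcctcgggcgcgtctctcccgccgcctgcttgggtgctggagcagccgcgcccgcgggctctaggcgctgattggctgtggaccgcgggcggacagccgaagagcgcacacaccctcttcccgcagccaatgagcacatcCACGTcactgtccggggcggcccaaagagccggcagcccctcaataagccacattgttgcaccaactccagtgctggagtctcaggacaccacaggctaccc
Egln3: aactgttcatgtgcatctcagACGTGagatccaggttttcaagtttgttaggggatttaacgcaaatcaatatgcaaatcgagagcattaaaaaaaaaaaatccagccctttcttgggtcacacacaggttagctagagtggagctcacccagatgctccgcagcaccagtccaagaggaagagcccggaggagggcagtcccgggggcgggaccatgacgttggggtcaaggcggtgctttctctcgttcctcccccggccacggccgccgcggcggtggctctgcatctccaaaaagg
ACGTG was not found in any window of 9 members (Kdm3a, Adm, Gpi1, Pfkl, Pfkp, Tpi1, Eno1, Pfkfb4 and Pdk1), and Slc2a3 and Ndrg1 had no entry.

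Some glycolytic enzymes were the most abundant members. Per kilobase of exon, Pkm, the pyruvate kinase at the end of the pathway, was at 383 CPM per kb over all tumors and Pgk1, which makes ATP from a glycolytic intermediate, at 324. Of the glucose transporters, Slc2a1 (GLUT1) was at 51.6 CPM per kb and Slc2a3 (GLUT3) at 1.33. Of the hexokinases that trap glucose in the cell, Hk2 was at 38.7 CPM per kb and Hk1 at 16.0. Of the phosphofructokinases, the committed step, Pfkl was at 43.4 and Pfkp at 10.6 CPM per kb. Their median levels were 288 and 142 CPM. Values per kb depend on the length of all annotated exons together, 6675 bases for Pfkl and 13401 for Pfkp, which the transcripts present may not share. Across the 94 tumors, CPM varied most for Slc2a3 (33.3-fold from lowest to highest tumor), for Adm, which encodes the vessel-widening peptide adrenomedullin (22.4-fold), for Pfkfb3 (15.9-fold) and for Bnip3, a mitophagy receptor (13.9-fold). It varied least for Pkm (2.34-fold), Hk1 (2.41-fold) and Eno1 (2.49-fold). Eno1 is uncertain because counts on its near copy Eno1b came to 42.1% of those on Eno1, while other near copies of members held at most 0.452%.

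**Figure D1:**
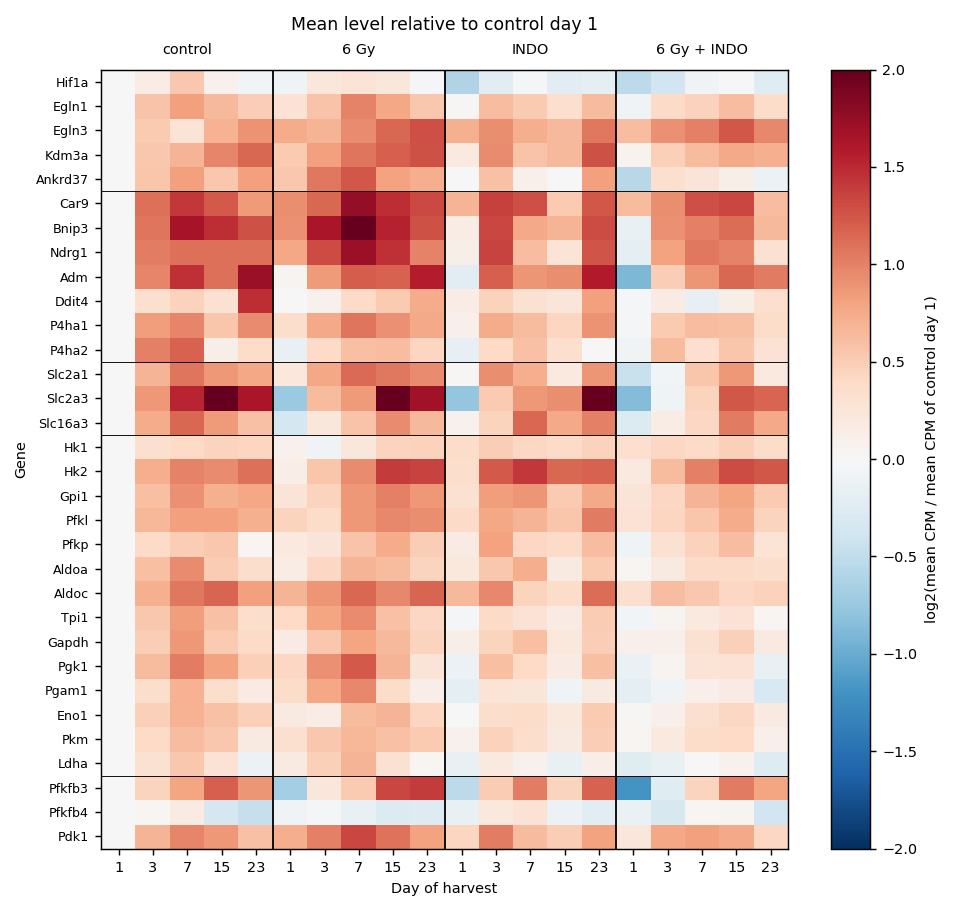
Mean CPM of each of the 32 members (rows, by role) in each of the 20 groups (columns, 4 treatments by 5 days), as log2 of the ratio to untreated controls on day 1, on a colour scale from -2 to 2. Most rows turn to higher values from day 3 on in every treatment. Pfkfb4 is slightly higher in controls on day 7 and lower on days 15 and 23.

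The first question was how the members moved as untreated tumors grew. When compared with controls on day 1, all 32 members had a positive log2 fold change on day 3 (median 0.59, against 0.01 over all genes) and on day 7 (0.83, against -0.01). On day 3 edgeR called no member, where 0.00431% of all genes tested were called higher and 0% lower. At an unadjusted p under 0.05 there were 23 members, and DESeq2 called 7. The shares of all genes for these counts are not given here, so the counts do not set the members apart. On day 7, 22 members were called higher (7.27% of all genes tested, with 4.37% lower), and for 21 of the 22 all 5 tumors lay above all 4 of day 1. Genes already called tend to show no overlap, and the share without overlap over all genes was not counted. On day 15, 14 were higher and 1 lower (8.3% and 8.59% of all genes), with a median of 0.67, and on day 23, 14 were higher and 1 lower (14.3% and 14.1%), with a median of 0.64. With housekeeping scaling day 7 had 18 higher and 0 lower, day 15 had 16 and 0, and day 23 had 9 and 1. Without the 22 tumors with much muscle RNA, day 7 rested on 3 tumors against 3 and the calls there were 2, Car9 and Hk2, while the median was 0.89.

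Day 7 calls spread over all roles. They were 3 of 5 sensing genes, 5 of 7 response genes, 3 of 3 transporters, 10 of 14 enzymes and 1 of 3 flux genes. By day 23 they were 3, 5, 2, 3 and 1 in the same order. Enzymes of the lower part of the pathway such as Gapdh (0.84, SE 0.19, adjusted p = 0.00884) and Tpi1 (0.82, SE 0.19, 0.0127), which rose by day 7, were not called on day 23. Among the largest day 7 changes were Bnip3 (log2 fold change 1.64, SE 0.38, adjusted p = 0.012), Adm (1.44, SE 0.44, 0.0413) and Car9 (1.40, SE 0.26, 0.00306). Car9 encodes a carbonic anhydrase at the cell surface that takes part in pH control. Egln1, which encodes the main oxygen sensor PHD2, was higher by 0.80, 0.65 and 0.48 on days 7, 15 and 23 (SE 0.16, 0.17 and 0.17, adjusted p = 0.00428, 0.0168 and 0.0495). The day 23 call of Egln1 was lost in 14 of 20 fits that each left out 1 control and with housekeeping scaling (0.28), and the day 7 call of Adm in 8 of 20 fits. Adm and Ddit4 were highest on day 23, at 1.72 and 1.47.

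Hif1a (chr12:73901375-73947530, plus strand, mm10), the oxygen-regulated subunit of HIF-1, measured 240, 249, 262 and 271 CPM in the 4 controls of day 1 and 429, 357, 364, 320 and 392 CPM in the 5 of day 7. On day 15 it measured 220.0, 299 and 298 CPM, and on day 23 it measured 249, 281 and 203 CPM. All day 7 tumors lay above all those of day 1 (log2 fold change 0.53, SE 0.12, adjusted p = 0.00831), whereas the range of day 23 held that of day 1 and no change was called (-0.08). The day 7 change was not called with housekeeping scaling (0.37).

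Kdm3a (chr6:71588972-71632990, minus), a histone demethylase that HIF induces, measured 58.5, 68.1, 81.0 and 89.7 CPM on day 1 and 226, 159 and 108 CPM on day 23. Its means over days 1, 3, 7, 15 and 23 were 74.3, 108, 119, 147 and 164 CPM. All tumors of day 3 and later lay above all of day 1, and the change on day 23 was 1.13 (SE 0.20, adjusted p = 0.000627).

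Slc2a3 (chr6:122727809-122801640, minus), the high-affinity glucose transporter, measured 3.80, 3.41, 5.75 and 5.37 CPM in controls of day 1. It reached 15.5, 22.3 and 29.9 CPM on day 15, all above day 1 (log2 fold change 2.30, SE 0.39, adjusted p = 0.000782), the largest change of any member in controls. On day 23 it measured 23.1, 14.49 and 5.05 CPM, and the lowest of these fell within the range of day 1 (1.62, SE 0.38, 0.00416).

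Hk2 (chr6:82725025-82774454, minus), the inducible hexokinase, was tight on day 1 at 114, 130, 111 and 121 CPM and measured 206, 244, 271, 226 and 240 CPM on day 7. On days 15 and 23 it measured 188, 246 and 250 CPM, and 321, 262 and 181 CPM. No later tumor reached down to day 1, and the changes were 0.98, 0.94 and 1.08 (SE 0.16, 0.18 and 0.18, adjusted p = 0.00136, 0.00171 and 0.000266). P4ha1 (chr10:59323296-59373304, plus), a collagen prolyl hydroxylase, behaved alike in direction, from 84.7, 86.7, 100.3 and 107 CPM on day 1 to 259, 172 and 116 CPM on day 23 (0.93, SE 0.23, 0.00649), with no overlap.

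Ddit4 (chr10:59949669-59951834, minus), a stress-induced inhibitor of mTORC1, rose late: it measured 101, 81.3, 66.9 and 71.2 CPM on day 1 and 348, 226 and 96.5 CPM on day 23 (1.47, SE 0.32, 0.00271). One tumor of day 23 lay within the range of day 1. Pfkfb4 (chr9:108991778-109032228, plus), which encodes a bifunctional enzyme that sets fructose-2,6-bisphosphate, was the only member called lower in growing controls. It measured 24.8, 22.3, 19.9 and 22.4 CPM on day 1 and 17.0, 15.5 and 16.2 CPM on day 23 (-0.48, SE 0.11, 0.00333), with all 3 tumors below all 4. Its relative Pfkfb3 (chr2:11471433-11554077, minus) rose from 30.0, 24.6, 29.4 and 31.5 CPM to 45.2, 62.4 and 90.7 CPM on day 15 (1.19, SE 0.31, 0.0129), with no overlap.

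Neutrophil genes moved with growth too. Of 12 such genes 8 were called higher and none lower on each of days 7, 15 and 23 (medians 3.08, 3.78 and 4.00), and their summed level was 200 to 360 CPM on day 1 and 801 to 1217 CPM on day 7. On day 7 endothelial genes summed to 572 to 927 CPM, against 528 to 703 CPM on day 1, and of them Adgrl4 alone was called higher (0.75). On that day macrophage genes summed to 1577 to 2635 CPM, with Lyz2, C1qa and C1qc among those called higher. Tumor epithelial genes summed to 2110 to 4604 CPM, with Krt19 and Krt7 called higher. On later days endothelial genes moved otherwise, with 12 of 18 lower on day 15 (median -1.15) and 1 higher and 4 lower on day 23 (-0.29). Tumor epithelial genes summed to 2691 to 3108 CPM on day 1 and 3520 to 5052 CPM on day 23, when 5 of 10 were higher and 1 lower, among them Epcam (1.33) and Cldn4 (1.40). Macrophage genes summed to 1635 to 2228 CPM on day 1 and 662 to 838 CPM on day 15, when 4 of 10 were lower, and muscle genes to 797 to 2374 and 19.1 to 22.7 CPM, when 10 of 12 were lower. The part of these cells in the members' change was not tested. Day of growth cannot be told apart from day of harvest.

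**Figure D2:**
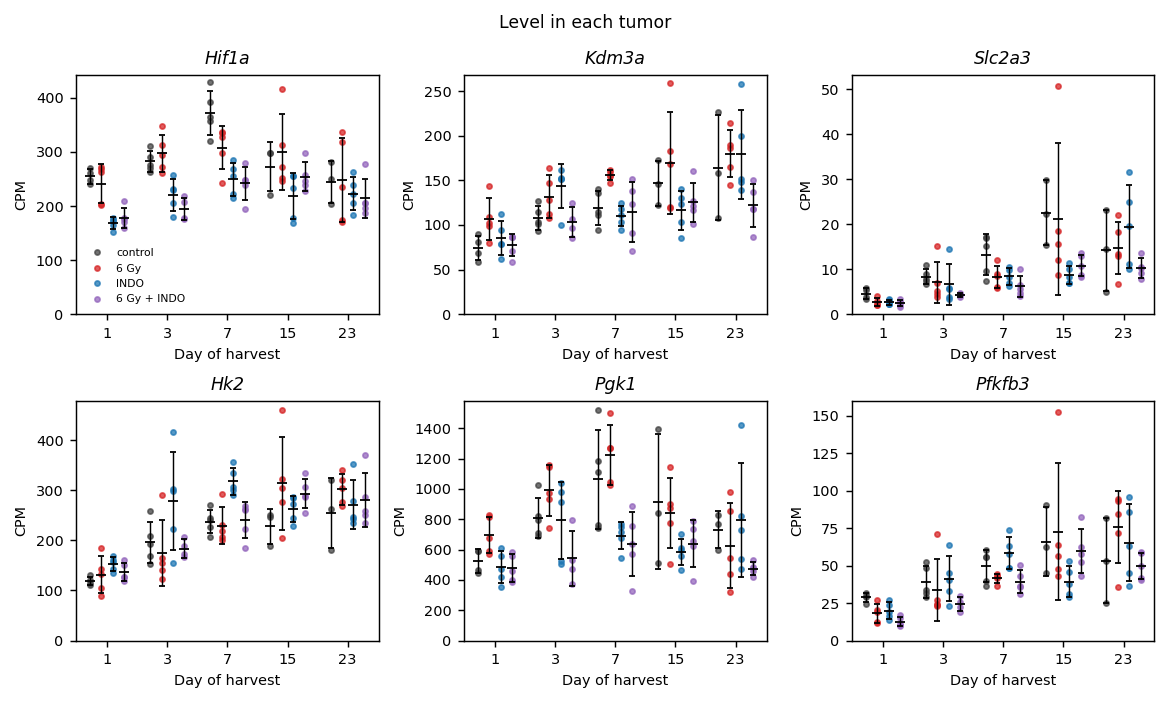
CPM of Hif1a, Kdm3a, Slc2a3, Hk2, Pgk1 and Pfkfb3 in each of the 94 tumors by day and treatment (points), with mean ± SD of each group. Hif1a in the 5 INDO and 5 6 Gy + INDO tumors lies below all 4 controls on day 1, and control levels of all 6 genes are higher on day 7 than on day 1.

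The next question was what each treatment did against controls of the same days. As a mean over the 5 days, 6 Gy called 5 members higher and none lower (median log2 fold change 0.12, against 0.03 over all genes). Of all genes tested, 9.19% were called higher and 10.6% lower. INDO called 2 higher and 3 lower (median -0.09, against 0.07), where 16.8% and 17.4% of all genes were called. 6 Gy + INDO called 1 higher and 16 lower (median -0.24, against 0.19), where 29.6% and 23.2% of all genes were called. With housekeeping scaling the counts higher and lower became 6 and 1, 7 and 1, and 3 and 4, with medians of 0.13, 0.08 and -0.04. The housekeeping genes were themselves lower with INDO, as given above. Without the high-receptor tumors they were 3 and 1, 2 and 8, and 1 and 8. The 3 comparisons share the same 20 controls.

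**Figure D3:**
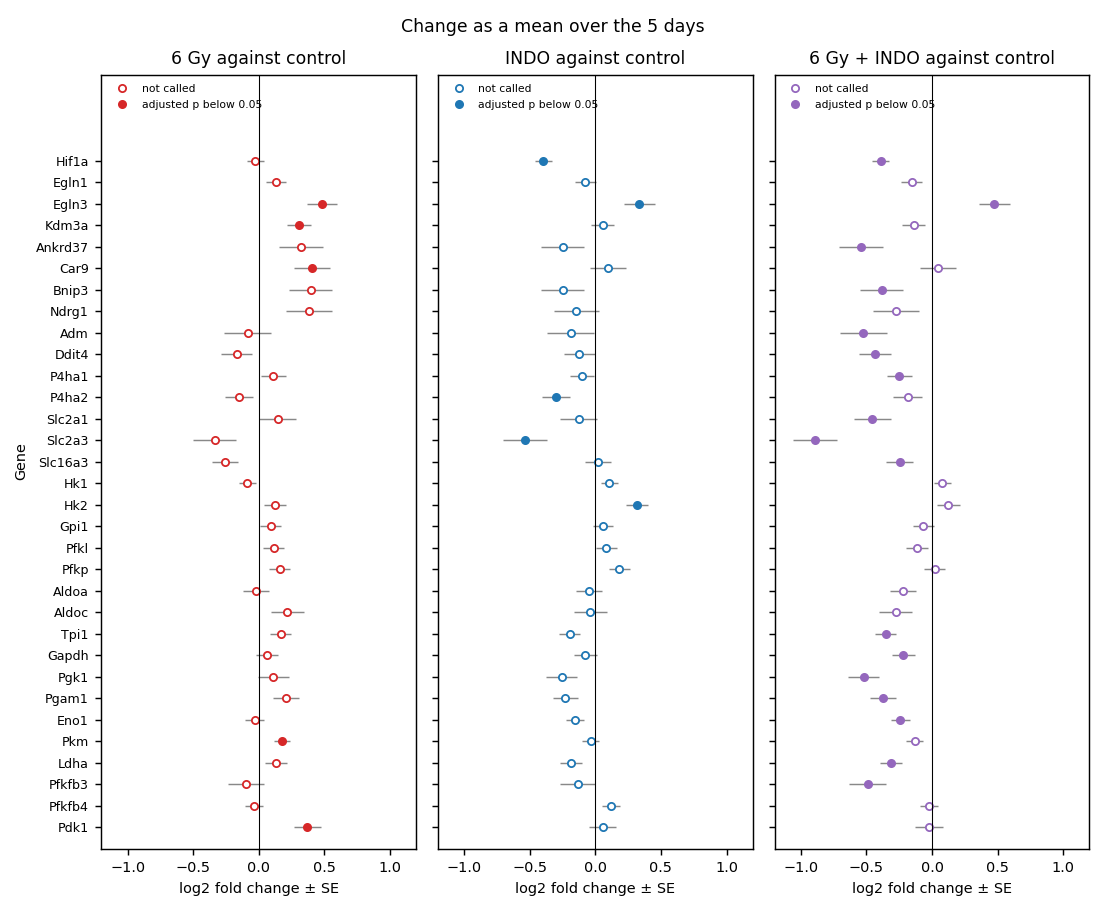
Log2 fold change ± SE of each of the 32 members as a mean over the 5 days, for 6 Gy, INDO and 6 Gy + INDO against control, with filled points at an adjusted p below 0.05. Points lie on both sides of 0 after 6 Gy and INDO, and 27 of 32 lie below 0 with 6 Gy + INDO, Slc2a3 farthest at -0.89.

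Among the sensing genes, Hif1a was lower with both treatments that held INDO. As a mean over days it changed by -0.40 with INDO (SE 0.07, adjusted p = 3.23e-06) and by -0.39 with 6 Gy + INDO (SE 0.07, 1.42e-06), lower on 5 of 5 days in both. After 6 Gy alone the fit called no change. The falls were called with housekeeping scaling as well, where they measured -0.23 (0.0118) and -0.19 (0.0255), and without the high-receptor tumors, where the fall with 6 Gy + INDO was -0.51.

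On day 1 Hif1a measured 153, 174, 165, 178 and 173 CPM with INDO and 177, 159, 176, 170.2 and 209 CPM with 6 Gy + INDO, against 240 to 271 CPM in controls. After 6 Gy it measured 203, 202, 272, 268 and 262 CPM. All INDO and all 6 Gy + INDO tumors lay below all controls (-0.56, SE 0.10, adjusted p = 0.00109, and -0.51, SE 0.10, 0.00134), and those after 6 Gy overlapped with them. The same held on day 7, when INDO tumors measured 222, 215, 269, 255 and 286 CPM and 6 Gy + INDO tumors 249, 249, 279, 195 and 239.5 CPM, against 320.2 to 429 CPM in controls (-0.52, SE 0.12, 0.00606, and -0.54, SE 0.12, 0.00168). These calls remained when any 1 tumor was left out, and those of day 1 also with housekeeping scaling. With that scaling Hif1a on day 7 was not called (-0.41 with INDO and -0.31 with 6 Gy + INDO), and without the high-muscle tumors INDO called no member on that day.

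Egln3, which encodes PHD3 and is itself a HIF target, was the member called higher with all 3 treatments over days, at 0.48, 0.34 and 0.47 after 6 Gy, INDO and 6 Gy + INDO (SE 0.12 each, adjusted p = 0.00118, 0.0186 and 0.000528). With housekeeping scaling it was 0.50, 0.52 and 0.67, and called in all 3. On day 1 all 15 treated tumors lay above all 4 controls, with changes of 0.75, 0.74 and 0.62 (SE 0.19 each, adjusted p = 0.0111, 0.0122 and 0.0213). The first and the last of these were not called with housekeeping scaling.

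Kdm3a was higher after 6 Gy (0.31, SE 0.09, adjusted p = 0.00777, higher on 5 of 5 days). On day 7 it measured 155, 160, 162, 147 and 155 CPM after 6 Gy and 115, 94.9, 140.0, 135 and 111 CPM in controls. Those 5 tumors lay above all 5 controls, though the day itself was not called. INDO and 6 Gy + INDO tumors measured 94.7 to 124 and 70.6 to 152 CPM on that day, and both overlapped with controls. Ankrd37, a HIF target of little known function, was lower with 6 Gy + INDO (-0.54, SE 0.17, 0.0044) and was not called with housekeeping scaling.

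Of the 7 response genes, 4 were lower with 6 Gy + INDO: Adm (-0.52, SE 0.18, adjusted p = 0.0118), Ddit4 (-0.44, SE 0.12, 0.00189), Bnip3 (-0.38, SE 0.16, 0.0417) and P4ha1 (-0.25, SE 0.10, 0.0217). None of the 4 was called with housekeeping scaling. Car9 was higher after 6 Gy (0.41, SE 0.14, 0.0246), a change that was called with housekeeping scaling too and not without the high-receptor tumors. P4ha2, another collagen prolyl hydroxylase, was lower with INDO (-0.30, SE 0.11, 0.0235), and not with housekeeping scaling.

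Ddit4 on day 7 measured 76.4, 97.4, 55.0, 86.7 and 42.4 CPM with 6 Gy + INDO, against 76.9, 121, 113, 140.0 and 103 CPM in controls (-0.55, SE 0.18, adjusted p = 0.0201). INDO tumors measured 94.6, 86.2, 117, 114 and 84.6 CPM, and those after 6 Gy 110.4, 88.7, 122, 105 and 95.2 CPM. The groups overlapped, and 3 of 5 tumors given 6 Gy + INDO lay below all controls. P4ha1 on the same day measured 126, 177, 164, 177 and 79.0 CPM with 6 Gy + INDO against 168, 175, 206, 218 and 162 CPM in controls, and was not called on that day.

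All 3 transporters were lower with 6 Gy + INDO. Slc2a3 changed the most of all members, by -0.89 (SE 0.17, adjusted p = 1.13e-05, lower on 5 of 5 days), and by -0.54 with INDO (SE 0.17, 0.00846). With housekeeping scaling the combination still gave -0.68 and was called, and INDO was not. Slc2a1, the GLUT1 transporter (chr4:119108711-119137983, plus), changed by -0.45 (SE 0.14, 0.00546) and Slc16a3, which encodes the lactate exporter MCT4, by -0.25 (SE 0.10, 0.032). Neither was called with housekeeping scaling.

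On day 7 Slc2a3 measured 4.10, 5.56, 6.52, 4.76 and 10.1 CPM with 6 Gy + INDO and 17.2, 9.52, 15.2, 7.31 and 16.9 CPM in controls (-1.004, SE 0.29, adjusted p = 0.00904). Of the 5 treated tumors, 4 lay below all controls. INDO tumors measured 7.01, 9.93, 8.28, 10.4 and 6.31 CPM and those after 6 Gy 5.96, 8.61, 12.0, 5.87 and 9.05 CPM, and neither was called on that day. On day 1 it measured 2.73, 2.08, 1.53, 2.71 and 3.48 CPM with 6 Gy + INDO, against 3.41 to 5.75 CPM in controls (-0.87, SE 0.26, 0.019), with 1 treated tumor inside the control range.

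Slc2a1 on day 3 measured 121, 95.8, 163 and 68.0 CPM in the 4 tumors given 6 Gy + INDO, against 259, 146, 250.3, 107 and 176 CPM in controls. The groups overlapped and the day was not called. Tumors of the same day measured 375, 189, 174, 118 and 144 CPM after 6 Gy and 185, 307, 270, 135 and 213 CPM with INDO. On day 23 the 5 tumors given 6 Gy + INDO measured 111 to 159 CPM and the 3 controls 119 to 279 CPM.

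Of the 14 enzymes, 6 were lower with 6 Gy + INDO and no other was called. All 6 act after aldolase: Tpi1 (-0.35, SE 0.08, adjusted p = 0.000219), Gapdh (-0.22, SE 0.09, 0.0273), Pgk1 (-0.52, SE 0.12, 0.00019), Pgam1 (-0.37, SE 0.10, 0.00106), Eno1 (-0.24, SE 0.07, 0.00297) and Ldha, the lactate dehydrogenase that regenerates NAD (-0.32, SE 0.08, 0.0011). Hk1, Hk2, Gpi1, Pfkl, Pfkp, Aldoa and Aldoc, which act before them, and Pkm were not called. With housekeeping scaling Pgk1 (-0.31, 0.00566) and Pgam1 (-0.16, 0.0477) were still lower, and Hk1 (0.27, 0.00335) and Hk2 (0.31, 0.00431) were higher.

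Hk2 was higher with INDO (0.32, SE 0.08, adjusted p = 0.00265, higher on 5 of 5 days), and also with housekeeping scaling (0.49). On day 7 it measured 299.5, 307, 357, 334 and 289.9 CPM with INDO, above the 206 to 271 CPM of all 5 controls (0.49, SE 0.11, 0.00737). After 6 Gy it measured 218, 201, 292, 231 and 206 CPM and with 6 Gy + INDO 263, 222, 261, 268 and 185 CPM, and both overlapped with controls. After 6 Gy the one enzyme called over days was Pkm (0.18, SE 0.06, 0.0396).

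Pgk1 (chrX:106187100-106203699, plus) on day 7 measured 636, 889, 570.4, 754 and 325 CPM with 6 Gy + INDO and 674, 544, 770, 749 and 717 CPM with INDO. Controls measured 741, 759, 1183, 1521 and 1111 CPM, and tumors after 6 Gy 1503, 1272, 1044, 1023 and 1267 CPM. The change with 6 Gy + INDO was -0.66 (SE 0.22, adjusted p = 0.0182), with 3 of 5 tumors below all controls, and INDO and 6 Gy were not called on that day. On day 1 the 5 tumors given 6 Gy + INDO measured 384 to 585 CPM and the controls 444 to 593 CPM, and they overlapped.

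Among the flux genes, Pfkfb3 was lower with 6 Gy + INDO (-0.49, SE 0.14, adjusted p = 0.00198). Pdk1, which limits the oxidation of pyruvate in the mitochondria, was higher after 6 Gy (0.37, SE 0.11, 0.00646). The fall of Pfkfb3 was not called with housekeeping scaling, and the rise of Pdk1 was (0.38). On day 1 Pfkfb3 measured 10.6, 17.0, 9.60, 15.1 and 10.99 CPM with 6 Gy + INDO, all below the 24.6 to 31.5 CPM of controls (-1.18, SE 0.24, 0.00152), and this call was kept with housekeeping scaling (-1.24). INDO tumors measured 27.2, 13.8, 18.8, 23.7 and 16.5 CPM and those after 6 Gy 19.3, 26.8, 20.2, 12.2 and 11.9 CPM, and were not called. Pfkfb4 was called with no treatment over days, and ranged from 12.0 to 33.2 CPM over all treated tumors.

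Within single days few members were called apart from 6 Gy + INDO on day 7. On day 1, 6 Gy called Egln3 alone, where 6.15% of all genes were called higher and 9.43% lower. INDO called Egln3 higher and Hif1a lower (5.81% and 8.89%), and 6 Gy + INDO called Egln3 higher and Hif1a, Slc2a3 and Pfkfb3 lower (10.7% and 13.3%). Under housekeeping scaling 6 Gy called Slc2a3 alone, lower, and 6 Gy + INDO no longer called Egln3. On day 3 edgeR called no member after 6 Gy (7 at an unadjusted p under 0.05, 1 with DESeq2) or with INDO (5, and 3 with DESeq2), where 3.62% and 4.1%, and 2.38% and 3.95% of all genes were called higher and lower. Housekeeping scaling gave 5 lower after 6 Gy and 1 higher, Pfkp, with INDO. 6 Gy + INDO called Hif1a (-0.50, SE 0.12, adjusted p = 0.00984) and Slc16a3 (-0.55, SE 0.19, 0.0493) lower (10.1% and 9.43% of all genes), and neither with housekeeping scaling (-0.33 and -0.43) or without the high-receptor tumors, which left 1 tumor in that group. Slc16a3 was lost in 15 of 19 fits that each left out 1 tumor of the day.

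On day 7, 6 Gy called Slc16a3 lower (-0.59, SE 0.11, adjusted p = 0.00169), and its 5 tumors did not overlap with controls (5.69% of all genes higher, 10.3% lower). INDO called Hk2 higher and Hif1a and Tpi1 lower (12.7% and 11.7%), Tpi1 was lost in 11 of 20 fits that each left out 1 tumor, and all 3 were lost without the high-muscle tumors. 6 Gy + INDO called Egln3 higher and 11 members lower (24.8% and 21.2%), and of the 11 Hif1a, P4ha2 and Slc16a3 did not overlap with controls. With housekeeping scaling the counts higher and lower were 1 and 1, 2 and 0, and 1 and 1, and for 6 Gy + INDO the calls were Egln3 (1.06) and Slc16a3 (-0.43). Without the high-receptor tumors they were 2 and 2, 1 and 6, and 1 and 4. The members' median was -0.36 with 6 Gy + INDO and -0.11 with housekeeping scaling.

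On days 15 and 23 edgeR called no member in any treatment, with 3 controls on each day. At an unadjusted p under 0.05, which a share of about 0.05 would pass by chance, there were 2 and 2 members for 6 Gy (days 15 and 23). There were 10 and 1 for INDO, and 4 and 3 for the combination. DESeq2 called 0 and 0, 1 and 0, and 1 and 1. Neither single agent called any gene at all (0% higher, 0% lower on both days), and 6 Gy + INDO called 0.778% higher and 0.552% lower on day 15, and 0% higher and 0.00473% lower on day 23. Members' medians for these days were 0.11 and 0.08 for 6 Gy, -0.33 and 0.15 for INDO, and -0.12 and -0.22 for the combination.

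Whether a change differed between days was tested as such. edgeR called no member after 6 Gy (1 at an unadjusted p under 0.05) or with INDO (6), where 3.82% and 2.66% of all genes were called. With 6 Gy + INDO it called 2 (33.6% of all genes), P4ha2 (adjusted p = 0.0301) and Slc16a3 (0.0352). P4ha2 changed by -0.07, -0.33, -0.77, 0.41 and -0.05 on days 1, 3, 7, 15 and 23, and Slc16a3 by -0.26, -0.55, -0.66, 0.17 and 0.20. With housekeeping scaling 6 Gy called 3 (P4ha2, Slc16a3 and Eno1), INDO 1 (Aldoc) and 6 Gy + INDO 2, Slc16a3 (0.0153) and Pfkfb3, while P4ha2 was not called with 6 Gy + INDO (0.0909). Without the high-receptor tumors neither P4ha2 nor Slc16a3 was called.

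The combination was then compared with each single agent over the 5 days. Against 6 Gy, 23 of 32 members were lower and 1, Hk1, was higher (median -0.36, against 0.19 over all genes), where 25.9% of all genes were called higher and 19.8% lower. Housekeeping scaling made the split 2 and 10, and leaving out the high-receptor tumors made it 1 and 12. The largest differences were in Ankrd37 (-0.87, SE 0.16, adjusted p = 8.23e-06), Bnip3 (-0.78, SE 0.15, 3.23e-05), Ndrg1 (-0.66, SE 0.17, 0.000826), a stress-induced gene, and Pgk1 (-0.63, SE 0.11, 5.47e-06). Kdm3a, Pkm, Car9 and Pdk1, which were higher after 6 Gy, were lower with the combination than after 6 Gy, by -0.45, -0.31, -0.37 and -0.40, and of these only Kdm3a was called with housekeeping scaling. Other lists moved in this comparison as well, with 6 of 12 neutrophil genes (median -0.51), 6 of 10 tumor epithelial genes (-0.34), 7 of 12 proliferation genes (-0.23) and 9 of 14 housekeeping genes (-0.20, with 1 higher) lower, and their part was not tested. Against INDO, only Slc16a3 was called, lower (-0.27, SE 0.09, 0.0496), where 7.21% of all genes were called higher and 3.54% lower. The median against INDO was -0.15, and 13 members had an unadjusted p under 0.05. That call was lost with housekeeping scaling (which called Ddit4 instead), without the high-receptor tumors and with DESeq2, and without day 15 the count against INDO was 20.

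Vessel genes were lower as a mean over days. Of 18 endothelial genes, 16, 17 and 17 were called lower over days after 6 Gy, INDO and 6 Gy + INDO (medians -0.81, -0.74 and -0.91), and with housekeeping scaling 16, 15 and 16. Their summed level was 280 to 927 CPM in controls, 267 to 433 after 6 Gy, 228 to 504 with INDO and 216 to 424 with 6 Gy + INDO. For each tumor, the median log2 ratio to day 1 controls was taken over the 18 endothelial genes and over the 32 members. On days 1, 3 and 7 the endothelial median of all treated tumors lay between -2.19 and -0.51 and that of all 14 controls between -0.32 and 0.77. On day 7 the members' median was 0.53 to 1.06 in controls, 0.70 to 1.00 after 6 Gy, 0.23 to 0.67 with INDO and -0.08 to 0.73 with 6 Gy + INDO, so all groups overlapped with controls. On day 15 the endothelial medians were -0.80, -0.87 and -0.83 after 6 Gy, INDO and 6 Gy + INDO and -1.13 in controls. No endothelial gene was called lower on days 15 and 23, but hardly any gene was called on those days. Of all genes, 0% were called lower with either single agent, and 0.552% (day 15) and 0.00473% (day 23) with 6 Gy + INDO. The counts of members called lower over days were 0, 3 and 16, where 10.6%, 17.4% and 23.2% of all genes were called lower. With housekeeping scaling these member counts were 1, 1 and 4. Leaving out the high-receptor tumors lowered the count with 6 Gy + INDO and raised the others, as given above. Whether vessel loss had a part in the members' levels was not tested. Neutrophil genes (1, 6 and 7 of 12 lower over days), macrophage genes (9, 4 and 7 of 10 lower) and tumor epithelial genes (4 of 10 lower with INDO and 4 with 6 Gy + INDO, median -0.24 with the latter) moved as well, and their part was not tested either.

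**Figure D4:**
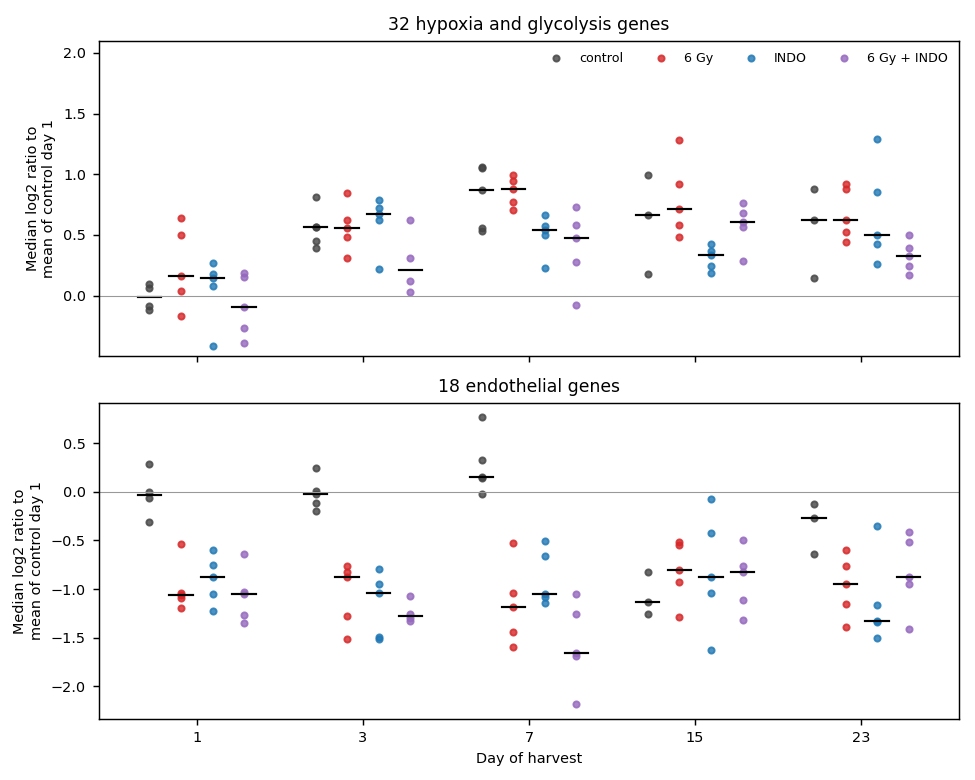
Median log2 ratio to untreated controls of day 1 in each tumor, over the 32 members and over 18 endothelial genes, by day and treatment (points are tumors, bars are group medians). Endothelial values of treated tumors lie at or below -0.51 on days 1, 3 and 7, while member values of treated tumors overlap with controls on each of these days.

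Other genes of the same pathways were counted from fixed lists. Over days, 6 Gy called 8 of 29 other hypoxia genes higher and 6 lower, INDO 1 and 10, and 6 Gy + INDO 3 and 12 (medians -0.01, -0.17 and -0.23). Of all genes tested, 9.19%, 16.8% and 29.6% were called higher in the same order, and 10.6%, 17.4% and 23.2% lower. These shares stand beside the glycolysis counts below as well. Angptl4, a lipase inhibitor that HIF and PPARs induce, was lower with each treatment (-0.67, -1.14 and -1.17, SE 0.14 each, adjusted p = 0.00017, 4.44e-09 and 5.85e-10). Epas1, which encodes HIF-2α and is abundant in endothelium, was lower too (-1.16, -0.62 and -0.83, SE 0.14 each, adjusted p at most 0.000302), and fell in growing controls by day 23 (-2.12, SE 0.29, 6.5e-05). Vhl, which targets HIF for breakdown, was lower with 6 Gy + INDO (-0.53, SE 0.08, 9.01e-08). Of 25 other glycolysis genes tested, 2 were higher and 4 lower, 2 and 9, and 2 and 12 in the same order (medians -0.04, -0.12 and -0.25). They include Eno2, an enolase higher after 6 Gy (0.62, SE 0.15, 0.000951), and Pdha1, a subunit of pyruvate dehydrogenase, and Pgm2, both lower with 6 Gy + INDO (-0.37 and -0.30, SE 0.06 and 0.05, adjusted p = 2.48e-06 and 3.11e-07). In controls on day 7, 8 of 28 other hypoxia genes tested were higher, among them Gbe1 (1.01) and Fam162a (0.96). So were 3 of 24 other glycolysis genes, Pgm1 first (1.04), where 7.27% of all genes tested were higher.

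Within a group, members tended to be high or low in the same tumors. Of the 5 tumors given 6 Gy on day 15, replicate 3 held the highest CPM for 31 of 32 members, with Slc2a1 at 495 CPM against 133 to 215 in the others. Of the 3 controls of day 23, replicate 1 was highest for 28 members and replicate 3 lowest for 30. Of the 3 controls of day 15, replicate 1, a high-receptor tumor, was lowest for 31 and replicate 3 highest for 26. INDO replicate 1 on day 23 was highest for 24, and 6 Gy + INDO replicate 3 on day 3 for 25. The share of all genes highest or lowest in a given tumor was not counted, so a trait of the members and a shift of a whole library cannot be told apart. Neutrophil genes summed to 1827 CPM in control replicate 3 of day 15, 1708 CPM in control replicate 1 of day 23 and 2588 CPM in 6 Gy replicate 3 of day 15, the highest of their groups. They were not highest in INDO replicate 1 of day 23 (1515 CPM, against 1719 in replicate 4) or 6 Gy + INDO replicate 3 of day 3 (366 CPM, against 380 in replicate 4). Tumor epithelial genes were highest in 4 of these 5 tumors, at 4774, 5052, 4762 and 3305 CPM, and not in 6 Gy replicate 3 of day 15 (2836 CPM). Calls rested on some of these tumors. Without control replicate 3 of day 15, the count of members called against day 1 on that day went from 15 to 4, and without replicate 1 to 20. Without control replicate 1 of day 23 it went from 15 to 4. Without 6 Gy + INDO replicate 3 of day 3, the count with that treatment on day 3 went from 2 to 10.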

How the data were processed

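The authors sequenced total RNA of the 94 tumors after ribosomal depletion, with a stranded kit, trimmed reads with Cutadapt and used Partek Flow. The submitters' processing notes name mm10, STAR, cutadapt and Partek 11.0.24.0328, without saying what each was used for. The read counter and its gene models were not given in the sources used here. What the authors deposited is 1 table of expected counts per gene, not scaled to library size, where a read that matches more than 1 gene can be divided among them. Groups come from the sample labels.

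After rounding to whole numbers, the whole table was fitted with edgeR 4.0.16 in R 4.3.3, with the filter filterByExpr, TMM factors and the quasi-likelihood F test. Each treatment was compared with control in 1 fit per day (21133 to 22276 genes tested). Means over days, in which the 5 days weigh alike, the combination against each agent and differences between days came from 1 fit of all tumors (29373 genes), and growth from 1 fit of the 20 controls (23203 genes). The SE is the size of the log2 fold change over the square root of F. Levels are CPM with the TMM sizes of the fit of all tumors. CPM per kb divides by the bases of all exons of a gene together in GENCODE vM21. Fits were tested on simulated data before use.

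Alternatives were DESeq2 1.42.0, RLE factors, 14 housekeeping genes as the scale, no filter, a replicate block, daily comparisons from the fit of all tumors, and fits without each day or each tumor. Fits without tumors over 300 CPM of receptor reads or over 2000 CPM of muscle reads were added after the data were seen. Values are given tumor by tumor for 2 members of each role, those with the smallest p in any of 4 comparisons (3 treatments over days, controls of day 23 against day 1). Up to 3 genes with the smallest p are named from other lists, and 1 such gene is not reported here. The members and lists were chosen with earlier results of these data known. No tumors of a group held identical counts, and imaging data were not used here.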

Additional observations from a re-analysis of the deposited data

Results flagged for a closer look

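For the 10 members given tumor by tumor, 180 groups of 4 or 5 tumors were searched for a tumor far from the rest of its group (Dixon's test at 95%), and 13 such values were found in 7 tumors, where chance alone would give about 1 in 20 groups. Members that move together in 1 tumor are counted more than once. After 6 Gy on day 3, replicate 1 stood above its group for 5 members: Slc2a3 at 15.1 CPM, Slc2a1 at 375 CPM, Hk2 at 289 CPM, Pfkfb4 at 27.7 CPM and Pfkfb3 at 70.9 CPM. After 6 Gy on day 15, replicate 3 stood above its group for Slc2a3 at 50.8 CPM, Slc2a1 at 495 CPM and Pfkfb3 at 153 CPM. Both tumors held 2 of the higher sums of neutrophil genes after 6 Gy, 1507 and 2588 CPM, and their endothelial medians were -1.51 and -1.28. The other 5 values were in single tumors: Hif1a at 277 CPM in replicate 4 of 6 Gy + INDO on day 23, Kdm3a at 99.6 CPM in replicate 4 of INDO on day 3, Ddit4 at 105 CPM in replicate 2 of 6 Gy on day 23, P4ha1 at 101 CPM in replicate 2 of INDO on day 7, and Slc2a3 at 14.4 CPM in replicate 3 of INDO on day 3.

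The change with 6 Gy + INDO differed between days for P4ha2 (edgeR adjusted p = 0.0301) and Slc16a3 (0.0352), where 33.6% of all genes were called. With housekeeping scaling P4ha2 was not called, and without the high-receptor tumors neither gene was. P4ha2 was called lower on day 7 and Slc16a3 on days 3 and 7, and both had values above 0 on day 15 with no call, and 3 of the 5 tumors of day 7 in this group are high-receptor tumors. What sets these tumors and days apart was not tested.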

How the results depend on the processing

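All 32 members passed every filter at these depths, and days 15 and 23 rest on 3 controls each. No member's log2 fold change reversed past the threshold under any alternative. Numbers of members called, as given next, replace those of the report. RLE factors gave 0 for the combination against INDO, 1 for INDO between days, 1 for 6 Gy + INDO on day 3 and 2 for 6 Gy on day 7. Housekeeping scaling gave 8 for INDO, 7 for 6 Gy + INDO and 12 for the combination against 6 Gy over days, 3 and 1 between days after 6 Gy and with INDO, 5, 1 and 0 on day 3 (6 Gy, INDO, 6 Gy + INDO), and 2 for 6 Gy and 2 for 6 Gy + INDO on day 7. Without a filter there were 0 against INDO, 1 between days with 6 Gy + INDO and 1 with INDO on day 7. A replicate block gave 0 against INDO, 1 with INDO on day 3 and 1 with 6 Gy + INDO on day 15, and changed no other count by over 1.5 times. Deviations of tumors with the same number correlated at -0.617 to 0.738 (median 0.0796, with 61 of 132 pairs above 0.1). Those of tumors with different numbers correlated at -0.757 to 0.706 (median -0.0156, with 185 of 528 pairs above 0.1). The ranges overlapped, and whether the number pairs tumors was not tested. With all tumors in 1 fit there were 2, 1 and 2 on day 1, 6 with 6 Gy + INDO on day 3 and 2 on day 23. DESeq2 gave 0 against INDO, 7 and 4 on day 1 (6 Gy, INDO), 1 and 3 on day 3, 2 and 6 on day 7, 1 with INDO and 1 with 6 Gy + INDO on day 15, 1 with 6 Gy + INDO on day 23, and 7 in controls on day 3.

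Without high-receptor tumors there were 10 with INDO, 9 with 6 Gy + INDO, 13 against 6 Gy and 0 against INDO over days, 2 between days with INDO and 0 with 6 Gy + INDO, 4 after 6 Gy on day 1, 0 with 6 Gy + INDO on day 3, and 4, 7 and 5 on day 7. Without high-muscle tumors there were 10 with 6 Gy + INDO and 0 against INDO over days, 0 between days with 6 Gy + INDO, 0 after 6 Gy on day 1, 0 with 6 Gy + INDO on day 3, 0 and 5 on day 7 (INDO, 6 Gy + INDO), 1 with 6 Gy + INDO on day 23, and 2 in controls on day 7. Without day 1, 6 Gy called 1 over days. Without day 3 the count against INDO was 0. Without day 7 it was 0, with 3 for INDO and 11 for 6 Gy + INDO, without day 15 it was 20, and without day 23 it was 0, with 9 for INDO. The cause was not tested.

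Leaving out each tumor gave, for 6 Gy, INDO and 6 Gy + INDO, 1 to 5, 2 to 6 and 2 to 6 on day 1, 0 to 1, 0 to 2 and 1 to 10 on day 3, 1 to 4, 2 to 7 and 8 to 17 on day 7, 0 to 0, 0 to 0 and 0 to 1 on day 15, and the same on day 23. In controls it gave 0 to 4 on day 3, 17 to 24 on day 7, 4 to 20 on day 15 and 4 to 18 on day 23.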
